A study of Homo sapiens with 30 samples.

Results

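The Fc receptor-like genes FCRL1, FCRL2, FCRL3, FCRL4, FCRL5, FCRLA and FCRLB were followed in chromatin of OCI-Ly1, an established human cell line from a diffuse large B cell lymphoma. The 7 genes, of 59774 in the RefSeq table, were taken up because an H3K4me3 peak at FCRL2 was lower in cells given 500 nM JIB-04 than in cells given DMSO. Every consensus peak inside one of these genes or within 5 kb of it counted as a member, which gave 10 of 21268 H3K4me3 peaks and 29 of 63580 H3K27ac peaks. JIB-04 is a small molecule that inhibits the Jumonji family of histone demethylases. The cells had received 150 nM or 500 nM JIB-04 or 0.01% DMSO, the solvent, and no other agent or genetic change is named. Each mark had 2 libraries per treatment, so 12 of the series' 30 libraries were used. The time of treatment is not given in the sources used here. Nothing says that the 2 libraries of a group came from separate cultures, so p-values measure the spread between these libraries, which may be technical, and all values come from 1 cell line.

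Fc receptor-like proteins are members of the immunoglobulin superfamily related to the receptors that bind antibody Fc regions, and most are made by B cells. FCRL1 to FCRL5 are surface receptors whose cytoplasmic tails carry tyrosine motifs: inhibitory ones (ITIMs) recruit phosphatases, activating ones (ITAM-like) recruit kinases, and both tune signals from the B cell antigen receptor. FCRLA and FCRLB lack a membrane anchor and stay inside the cell. Trimethylation of lysine 4 of histone H3 (H3K4me3) is concentrated around transcription start sites, and acetylation of lysine 27 (H3K27ac) marks active promoters and enhancers.

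The genes lie on chromosome 1 in 2 groups (GRCh38). FCRL5 (157513377 to 157552515), FCRL4 (157573747 to 157598085), FCRL3 (157676481 to 157700956), FCRL2 (157745733 to 157777132) and FCRL1 (157794403 to 157820120) follow each other on the minus strand, so their start sites are at the higher coordinate. FCRLA (161707229 to 161714352) and FCRLB (161721544 to 161728143) lie side by side on the plus strand. FCRLB had 3 RefSeq promoter entries and each other gene had 1. Whether a peak lay over an exon, an intron or a UTR was not analysed here.

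**Figure D1:**
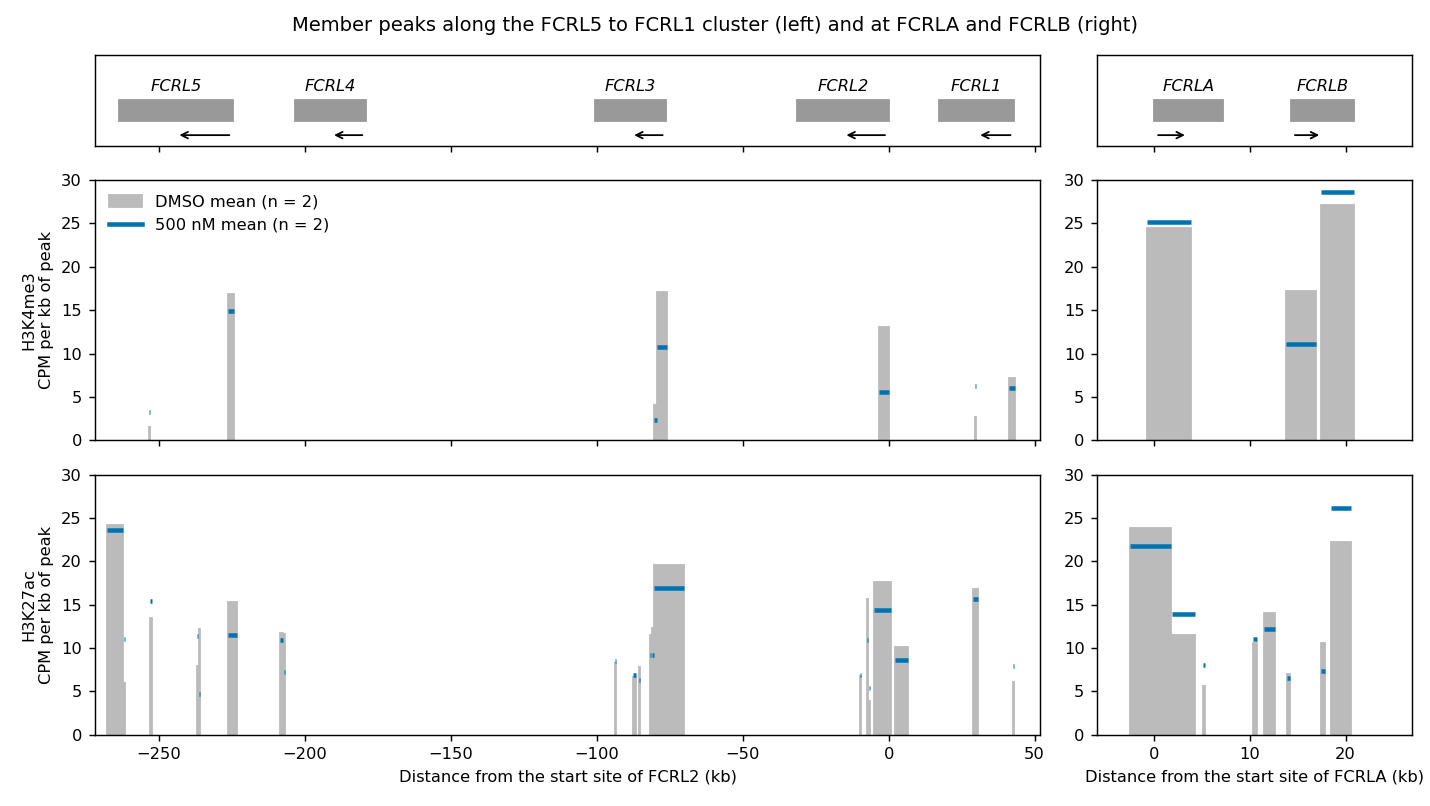
Genes (top, arrows give the direction of transcription) and member peaks of H3K4me3 and H3K27ac by distance in kb from the start site of FCRL2 (left) and FCRLA (right). Grey bars are the DMSO mean and blue lines the 500 nM mean in CPM per kb of peak (n = 2 each, no error shown), and no H3K4me3 bar stands at FCRL4.

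The promoters are shown because the H3K4me3 values over them differed in size. Printed are the 250 bases before the RefSeq start site (GRCh38.p14), read 5′ to 3′ on the gene's strand, with each CG dinucleotide and each match to a searched motif in capitals. The peaks over the start sites of FCRL2 (chr1:157777133-157777382, minus strand), FCRL3 (chr1:157700770-157701019, minus strand) and FCRLB (the first of its 3 start sites, chr1:161721294-161721543, plus strand) had the lowest H3K4me3 fold changes of the start-site peaks at 500 nM against DMSO. FCRLA (chr1:161706979-161707228, plus strand) and FCRL1 (chr1:157820121-157820370, minus strand), which held the PU.1 letters searched for, are shown beside them.
FCRL2: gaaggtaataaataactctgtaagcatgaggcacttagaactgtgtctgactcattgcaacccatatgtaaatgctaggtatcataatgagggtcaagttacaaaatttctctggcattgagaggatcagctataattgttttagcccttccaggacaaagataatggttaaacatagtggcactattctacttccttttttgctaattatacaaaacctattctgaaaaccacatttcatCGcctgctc
FCRL3: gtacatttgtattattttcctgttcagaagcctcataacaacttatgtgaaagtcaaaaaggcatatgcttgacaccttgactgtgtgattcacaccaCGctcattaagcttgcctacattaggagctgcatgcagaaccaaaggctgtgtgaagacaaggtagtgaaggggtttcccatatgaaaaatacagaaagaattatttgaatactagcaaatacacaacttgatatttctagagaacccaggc
FCRLB: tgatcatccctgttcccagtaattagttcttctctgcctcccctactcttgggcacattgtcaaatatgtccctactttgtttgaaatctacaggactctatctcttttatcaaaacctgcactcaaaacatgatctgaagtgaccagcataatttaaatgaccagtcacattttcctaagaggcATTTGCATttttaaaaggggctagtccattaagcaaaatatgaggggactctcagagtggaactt
FCRLA: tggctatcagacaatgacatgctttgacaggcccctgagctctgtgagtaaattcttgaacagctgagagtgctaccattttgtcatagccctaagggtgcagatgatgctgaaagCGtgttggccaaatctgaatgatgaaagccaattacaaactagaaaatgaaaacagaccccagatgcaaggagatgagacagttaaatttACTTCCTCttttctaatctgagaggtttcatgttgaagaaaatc
FCRL1: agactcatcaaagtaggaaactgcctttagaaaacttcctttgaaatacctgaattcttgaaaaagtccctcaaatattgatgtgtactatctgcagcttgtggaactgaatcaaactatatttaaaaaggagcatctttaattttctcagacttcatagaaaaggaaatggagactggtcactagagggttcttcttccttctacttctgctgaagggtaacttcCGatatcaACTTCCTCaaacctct

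All 9 RefSeq promoters of the family were poor in CG. Over 300 bases, from 250 before to 50 after the start site, they held 0 to 3 CG dinucleotides, against a median of 14 over 35116 promoters. FCRL2, FCRL3 and FCRLA had 1 each, FCRL1 had 2 and FCRL5 had 3. FCRL4 and the first FCRLB promoter had 0, as 3.96% of all promoters did. GC content ran from 36.3% at FCRL5 to 54.3% at the third FCRLB promoter, and the median of all promoters was 58.7%.

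Motifs of B cell transcription factors were searched on both strands over the same 300 bases. The octamer ATTTGCAT stood in the first FCRLB promoter, beginning 65 bases before the start site, and in 1.77% of all promoters. GAGGAAGT, a form of the PU.1 site, stood on the reverse strand in FCRL1, from 16 bases before the start site, and in FCRLA, from 44 bases before it, and in 2.59% of all promoters. The promoters of FCRL2, FCRL3, FCRL4 and FCRL5 held none of the searched letters. The others searched were an ETS-IRF composite site, found in 2.82% of all promoters, an EBF site, in 1.21%, and the TATA box (TATAAA), in 11.5%, with no match in the family. None of the letters searched for one motif overlapped those found for another.

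The libraries had 9686420 to 12327122 reads in H3K4me3 peaks and 4360660 to 5410292 in H3K27ac peaks, with a median count per peak of 263 to 328 and 21 to 24. The cells' origin was checked with marker genes. All 7 B cell markers had peaks of both marks. T cell markers had H3K27ac peaks at 4 of 4 genes (summed 156 to 174 CPM in DMSO, 166 to 182 CPM at 150 nM and 134 to 148 CPM at 500 nM) and H3K4me3 peaks at 2 of 4, with none at CD3E and CD2. Monocyte markers had H3K4me3 peaks at 2 of 4 genes, with 9.92 to 12.7 CPM in DMSO and 18.5 to 19.3 CPM at 500 nM and none at CSF1R and ITGAM, and no H3K27ac peak. Liver markers had an H3K4me3 peak at 1 of 3 genes and no H3K27ac peak, and of the erythroid genes KLF1 had a peak of each mark (H3K4me3 18.1 to 22 CPM, H3K27ac 12.3 to 18.2 CPM) while GATA1 and HBB had none. Summed over the B cell markers, H3K4me3 was 1630 to 1680 CPM in DMSO and 1470 to 1510 CPM at 500 nM, and H3K27ac was 1610 to 1740 and 1550 to 1560 CPM. The part of these shifts in the results on the Fc receptor-like genes was not tested. Among the H3K27ac libraries, 45.9 and 71.5 CPM fell on unplaced contigs in replicate 2 of 150 nM and of DMSO, and 322 to 446 CPM in the other 4. In the H3K4me3 libraries the 150 nM replicates differed by less than sampling noise (chi-square per degree of freedom 0.941), but DMSO replicate 1 and 150 nM replicate 1 did so too (0.962), so each was kept as a library.

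Levels are given as CPM, a library's reads in the peak relative to its reads in all tested peaks, after scaling by TMM (trimmed mean of M values). Paired values stand in the order of the replicate numbers. A scaling of this kind measures a peak relative to the other peaks. Between genes, the sum over a gene's peaks was divided by the kb they cover. In DMSO the H3K4me3 level per covered kb was 24.5 ± 0.0421 CPM (SD, n = 2) at FCRLA and 22.3 ± 0.284 at FCRLB, the genes for the intracellular proteins. It was 14.9 ± 0.867 at FCRL5, 14.2 ± 1.1 at FCRL3 and 13.1 ± 0.788 at FCRL2, and these neighbours in the order were less than the sum of their SDs apart. FCRL1 stood lower, at 6.48 ± 0.25. FCRL4, a receptor of tissue-based memory B cells, had no H3K4me3 peak inside it or within 5 kb. At 500 nM FCRL2 moved to the end of the order, at 5.61 ± 0.939 CPM per covered kb beside 6.09 ± 0.0773 at FCRL1, and FCRL3 stood at 8.96 ± 0.657. FCRLA (25.2 ± 0.94), FCRLB (20.2 ± 1.24) and FCRL5 (13.3 ± 0.478) kept the first places.

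H3K27ac was spread more evenly. Its DMSO level per covered kb ran from 19.4 ± 0.164 CPM at FCRL5 through FCRLA (17.9 ± 0.2), FCRL3 (17.4 ± 0.148), FCRLB (16.7 ± 0.219), FCRL1 (15.7 ± 0.761) and FCRL2 (14.0 ± 0.134) to 11.7 ± 2.23 at FCRL4. FCRL2 and FCRL4 were again at the low end at 500 nM, with 11.6 ± 0.718 and 9.91 ± 0.592, and FCRL5 was at the top with 18.1 ± 0.102. In DMSO FCRL2 and FCRL4 were less than the sum of their SDs apart. Of the 29 H3K27ac peaks, FCRL3 and FCRL5 had 6 each, FCRL2, FCRLA and FCRLB 5 each, and FCRL1 and FCRL4 2 each, with 2 peaks between FCRLA and FCRLB counted for both.

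The main H3K4me3 comparison, 500 nM JIB-04 against DMSO, chose these genes, so its values are a description without a test. Of the 10 member peaks, 9 had enough reads to be fitted. The FCRL2 peak that chose the genes is left out of the counts set beside all peaks. At an adjusted p under 0.05 over all fitted peaks, 4 of the other 8 were lower and 1 was higher. Of all 20402 fitted peaks 18.7% were lower and 20.7% higher, or 39.4% in all. In 5 of the 8 both 500 nM libraries were below both DMSO libraries (34.3% of all peaks), and in 2 both were above (33.7%). Scaling by total count in place of TMM took the lower call from the FCRL5 start-site peak (log2 fold change -0.15). It made the downstream FCRLB peak pass as higher (0.12). Over all peaks that scaling gave 2791 lower and 4767 higher, against 3819 and 4215. The median log2 fold change was -0.21 over the 8 peaks and -0.01 over all. The tenth peak, at FCRL5 (157523925 to 157524230), had 4 to 15 reads per library and was not fitted.

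FCRL2 encodes a receptor with both inhibitory and activating-type tail motifs, found on memory B cells. The peak over its start site (157773887 to 157777395, 3509 bp) held 48.0 and 44.1 CPM of H3K4me3 with DMSO, 43.3 and 45.8 with 150 nM and 22 and 17.4 with 500 nM. The 500 nM libraries stood apart from the other 4, which overlapped each other. The log2 fold change was -1.22 (SE 0.08) at 500 nM against DMSO, or 0.431 of the DMSO level, and 243 of the 20402 fitted peaks had a lower one. This is the peak that chose the genes.

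FCRL3 encodes an ITIM-bearing receptor expressed on B cells and some T cells. The peak over its start site (157697848 to 157701339) held 62.4 and 57.2 CPM of H3K4me3 with DMSO, 60.1 and 58.4 with 150 nM and 39.7 and 36.1 with 500 nM. The order of the groups was that at FCRL2, with a smaller difference: a log2 fold change of -0.66 (SE 0.062) at 500 nM against DMSO. A second, weaker FCRL3 peak lay 2997 bp from the start site, inside the gene (157696783 to 157697772). It was counted as a separate member although it nearly adjoins the start-site peak and overlaps the same H3K27ac peak (157696802 to 157706902). It had 4.90 and 3.14 CPM with DMSO, 4.12 and 3.72 with 150 nM and 2.55 and 2.04 with 500 nM, a log2 fold change of -0.82 (SE 0.27) at 500 nM against DMSO. The weaker peak's 500 nM libraries were also below the other 4. Its value no longer passed with DESeq2 (-0.81), without DMSO replicate 1 (-0.44) or without 500 nM replicate 2 (-0.68).

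FCRLB had H3K4me3 peaks that differed in course. The one over its 3 start sites (161720953 to 161724109) held 56.5 and 52.3 CPM with DMSO, 55.3 and 59.0 with 150 nM and 37.3 and 32.8 with 500 nM, a log2 fold change of -0.63 (SE 0.065) at 500 nM against DMSO. The next peak, 2030 bp downstream of the last start site and reaching nearly to the gene's end (161724683 to 161728099), held 91.7 and 93.3 CPM with DMSO, 90 and 92.4 with 150 nM and 101 and 94.4 with 500 nM. So the start-site peak was low at 500 nM and not at 150 nM. The downstream peak was at a log2 fold change of 0.09 (SE 0.044), which did not pass. It passed as higher with total count (0.12), loess offsets on abundance (0.14) and a mean count of at least 50 (0.11). Without 500 nM replicate 1 it was at 0.03, and without replicate 2 at 0.13.

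FCRLA, the neighbour of FCRLB, encodes a protein of the endoplasmic reticulum that binds immunoglobulin inside B cells. Its single H3K4me3 peak, over the start site (161706409 to 161711006), held 113 and 113 CPM with DMSO, 113 and 120 with 150 nM and 119 and 113 with 500 nM. Both 150 nM libraries were above both DMSO libraries, by a log2 fold change of 0.045 (SE 0.041). The 500 nM libraries overlapped both other groups, with a log2 fold change of 0.04 (SE 0.041) against DMSO, which did not pass. With loess offsets on abundance it was 0.1 and passed as higher.

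FCRL5, an ITIM-bearing receptor that binds IgG, had 34.9 and 32.3 CPM of H3K4me3 over its start site (157550833 to 157552820) with DMSO, 33.6 and 33.0 with 150 nM and 30.9 and 28.3 with 500 nM. The 500 nM libraries were the lowest, by a log2 fold change of -0.18 (SE 0.074). This value passed the threshold in 5 of 14 alternative settings, and without DMSO replicate 1 or without 500 nM replicate 2 it was -0.12 or -0.13 and did not pass. FCRL1, a mainly activating receptor, had 15.7 and 16.6 CPM over its start site (157818300 to 157820561) with DMSO, 17.9 and 15 with 150 nM and 13.9 and 13.6 with 500 nM. The log2 fold change was -0.23 (SE 0.12) and did not pass. With loess offsets on abundance it was -0.35 and passed as lower. A small peak inside FCRL1, 13168 bp from the start site (157806558 to 157806952), had 1.06 and 1.08 CPM with DMSO, 1.25 and 1.30 with 150 nM and 2.47 and 2.45 with 500 nM. It was the one member that passed as higher at 500 nM in the main fit, with a log2 fold change of 1.19 (SE 0.35). It did not pass with DESeq2 (1.20) or loess offsets on abundance (0.77), nor without DMSO replicate 1 (1.17).

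**Figure D2:**
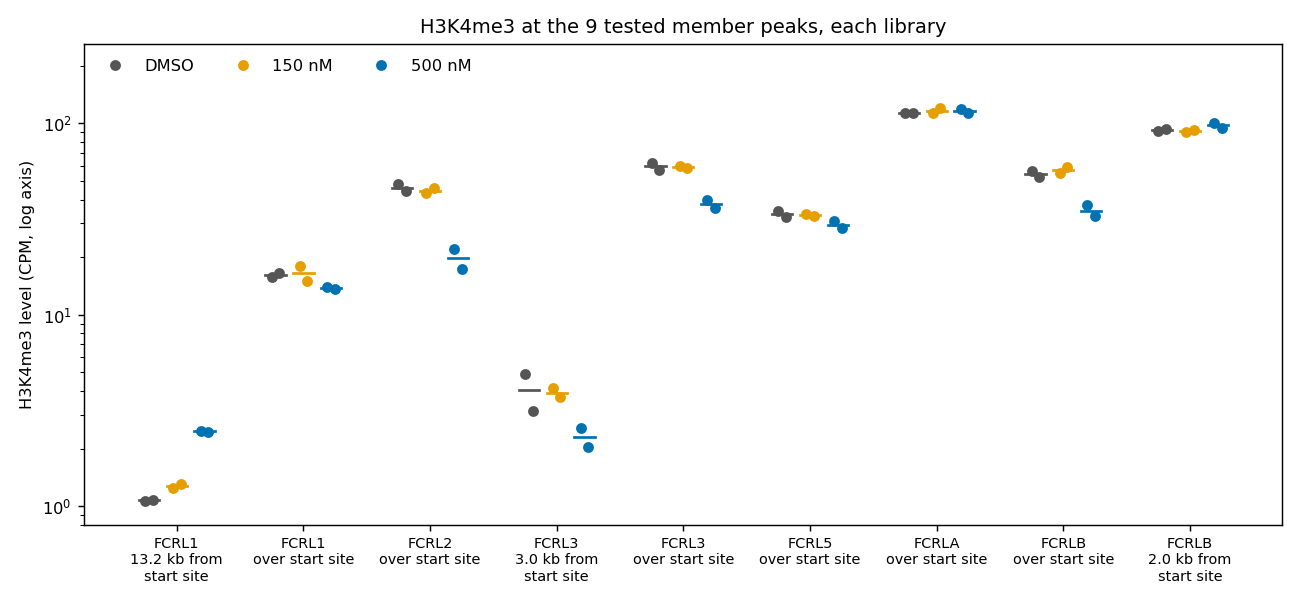
H3K4me3 level in CPM (log axis) of the 9 fitted member peaks; points are libraries and bars are means of 2, by treatment. At FCRL2 the 500 nM libraries stand at 22 and 17.4 CPM and the other 4 at 43.3 to 48.0, while at FCRLA all 6 lie between 113 and 120.

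The size of an H3K4me3 difference moved with the abundance of the peak over the whole table. In the 5 groups of equal size from the least to the most abundant peaks, the median H3K4me3 fold change against DMSO (500 nM, log2) was 0.44, 0.20, 0.02, -0.05 and -0.06. The start-site peaks of FCRL1, FCRL2, FCRL5 and FCRLB lay in the middle group, whose range from the 10th to the 90th percentile was -0.37 to 0.51. FCRL2 (-1.22) and FCRLB (-0.63) were below that range, and FCRL1 (-0.23) and FCRL5 (-0.18) within it. The FCRL2 peak chose the genes by its fall in this comparison, so its low place is no separate result. FCRL3, in the fourth group, was below its range of -0.19 to 0.11. The higher peak inside FCRL1 lay in the lowest group, and its 1.19 was inside that group's range of -0.62 to 1.59.

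The fold change also moved with the CG number of the promoter. Among the 396 fitted H3K4me3 peaks over promoters with 0 to 5 CG dinucleotides, which include all start-site peaks of the family, 37.9% were lower and 15.2% higher at 500 nM, with a median of -0.11. Among the 4439 over promoters with 31 or more, 22.4% were lower and 20.0% higher, with a median of -0.03. Of the 6 start-site peaks in the family, FCRL2 was outside the 10th to 90th percentile of the CG-poor class (-0.69 to 0.62), and the other 5 were inside it. A low place of FCRL2 was given by the choice of the genes here too. The part of CG content or abundance in the FCRL values was not tested.

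**Figure D3:**
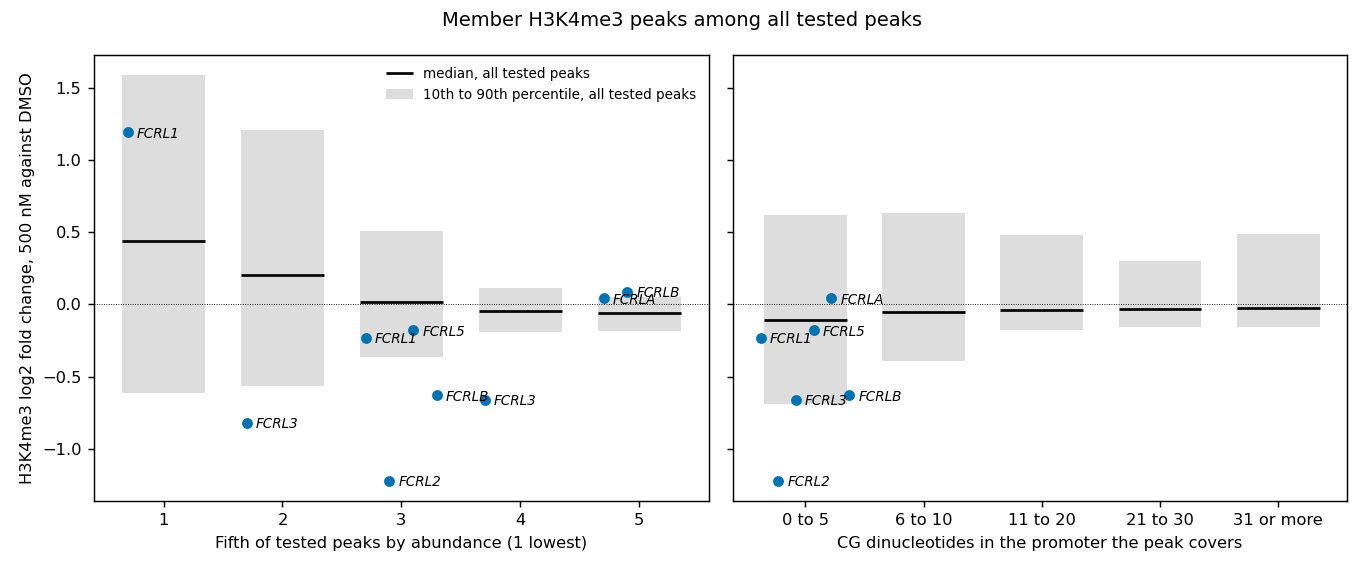
Log2 fold change of H3K4me3 at 500 nM against DMSO (vertical axis) for the member peaks (points) and all fitted peaks (line: median, box: 10th to 90th percentile), by abundance group on the left and by CG number of the covered promoter on the right. FCRL2, at -1.22, lies below the box of its class in both panels, and it is the peak whose fall chose the genes.

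The remaining H3K4me3 comparisons ask whether the difference lay between 150 nM and 500 nM or was already there at 150 nM. At 500 nM against 150 nM, edgeR's quasi-likelihood test called 3 of the 8 members other than the FCRL2 peak lower and 1 higher, where 18.6% and 20.5% of all peaks were, or 39.2% in all. In 5 of the 8 both 500 nM libraries were below both 150 nM libraries (34.4% of all peaks), and in 2 both were above (34.4%). The median log2 fold change of the 8 was -0.21, and that over all peaks was 0.00. Scaling by total count made the downstream FCRLB peak pass as higher too (0.14) and changed no other call of these 8. Over all peaks it gave 2921 lower and 4695 higher, in place of 3798 and 4190. These values share the 500 nM libraries with the comparison that chose the genes, so they are not independent of it. FCRL2 was at a log2 fold change of -1.16 (SE 0.081), given without a test. The FCRL3 start-site peak fell by 0.64 on the log2 scale (SE 0.062, edgeR adjusted p = 5.31e-13), and that of FCRLB fell by 0.70 (SE 0.065, edgeR adjusted p = 1.35e-13). For FCRLA the value was -0.0043 (SE 0.041, edgeR adjusted p = 0.953).

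The smaller members of this dose comparison were less certain. The weaker FCRL3 peak was at -0.76 (SE 0.27, edgeR adjusted p = 0.0217), and it lost the call without 150 nM replicate 1 (adjusted p = 0.124) or 500 nM replicate 2 (0.117) and with DESeq2 (0.204). The peak inside FCRL1 was at 0.94 (SE 0.34, edgeR adjusted p = 0.0247). It lost the call with loess offsets (edgeR adjusted p = 0.199) and with DESeq2 (DESeq2 adjusted p = 0.254). It also lost the call when any 1 of the 150 nM or 500 nM libraries was left out, at 0.91 to 0.96. The start-site peaks of FCRL5 (-0.16, SE 0.075, edgeR adjusted p = 0.0811) and FCRL1 (-0.26, SE 0.12, 0.0672) and the downstream FCRLB peak (0.11, SE 0.044, 0.0509) did not pass. The downstream FCRLB peak passed as higher in 6 of 14 alternatives, among them the 3 other scalings (edgeR adjusted p = 0.00416 with loess offsets, 0.00977 with total count and 0.0454 with median-of-ratios). The FCRL1 start-site peak passed as lower in 3, among them loess offsets (edgeR adjusted p = 0.00742) and leaving out 150 nM replicate 2 (0.0272), and the FCRL5 start-site peak passed in 1, loess offsets (0.022).

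At 150 nM against DMSO no member was called by edgeR, and of all peaks 0% were. At an unadjusted p under 0.05 edgeR gave 0 of the 8 members other than FCRL2 and 950 of all peaks (4.66%), and DESeq2 called 0. In 2 of these 8 members both 150 nM libraries were above both DMSO libraries (17.2% of all peaks), and in 0 both were below (16.8%). Their log2 fold changes ran from -0.06 to 0.25, with a median of 0.008 against 0.001 over all. The FCRL2 peak was at -0.06 (SE 0.066), the FCRL3 start-site peak at -0.02 (SE 0.055) and the FCRLB start-site peak at 0.07 (SE 0.058). The low H3K4me3 values at FCRL2, FCRL3 and FCRLB were thus found in the 500 nM libraries and not in the 150 nM ones.

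H3K27ac comes from other libraries than those that chose the genes, so it was tested throughout. At 500 nM against DMSO, edgeR called 0 of 27 fitted members, where it called 0.923% of all 54037 fitted peaks, 0.692% as higher and 0.231% as lower. DESeq2 called 0 members too. At an unadjusted p under 0.05 edgeR gave 4 of the 27, against 11.5% of all. The median log2 fold change was -0.10 over the members and -0.004 over all. In 13 of 27 members both 500 nM libraries were below both DMSO libraries (22.2% of all peaks), and in 5 both were above (22.4%).

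The H3K27ac peak over the FCRL2 start site (157772163 to 157777920) held all of the FCRL2 H3K4me3 peak. It had 98.9 and 104 CPM with DMSO, 98.8 and 95.2 with 150 nM and 85.9 and 79.6 with 500 nM. The 500 nM libraries were the lowest, but the difference was small next to that of H3K4me3: a log2 fold change of -0.29 (SE 0.10, edgeR adjusted p = 0.202). FCRL3 showed the same order over its start site, in a peak of 10101 bp (157696802 to 157706902), with 196 and 201 CPM with DMSO, 200 and 182 with 150 nM and 171 and 170 with 500 nM. The log2 fold change was -0.22 (SE 0.087, edgeR adjusted p = 0.283). Over the FCRL5 start site (157550925 to 157553789) H3K27ac was 42.1 and 45.7 CPM with DMSO, 38.7 and 32.8 with 150 nM and 34.9 and 31.1 with 500 nM. The value at 500 nM against DMSO was -0.41 (SE 0.14, edgeR adjusted p = 0.16), and here the 150 nM and 500 nM libraries overlapped. These 3 peaks were called lower by edgeR in a fit of the 4 libraries of the comparison alone, with adjusted p = 0.0103 at FCRL2, 0.0173 at FCRL3 and 0.0117 at FCRL5. The same 3 were called when either 150 nM library was left out, with edgeR adjusted p from 0.0166 to 0.0265. Calls over all peaks rose as well, from 499 (125 of them lower) with 6 libraries to 2105 (883 lower) with 4, and to 1900 and 1828 without replicate 1 or 2 of 150 nM. The 3 peaks were not called in the main fit, with DESeq2, with other scalings or filters, or with the replicate block or the contig split as a term. Within groups the 150 nM pair differed most (chi-square per degree of freedom 2.26, against 1.37 for DMSO and 1.29 for 500 nM). The part of this spread in the calls was not tested.

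The other most abundant H3K27ac peaks had smaller or positive values, without a test of the difference between peaks. At the far end of FCRL5 (157509384 to 157514722) H3K27ac was 130 and 128 CPM with DMSO, 143 and 146 with 150 nM and 126 and 127 with 500 nM, with a log2 fold change of -0.03 (SE 0.093) at 500 nM against DMSO. FCRLA had 102 and 99.5 CPM over its start site (161704703 to 161708909) with DMSO, 105 and 106 with 150 nM and 93.2 and 90.3 with 500 nM, a value of -0.13 (SE 0.10, edgeR adjusted p = 0.663), with the 500 nM libraries lowest here too. FCRLB's highest peak, inside the gene (161725711 to 161727845), had 46.2 and 48.5 CPM with DMSO, 42.5 and 56.2 with 150 nM and 55.4 and 56.5 with 500 nM, a value of 0.24 (SE 0.13, edgeR adjusted p = 0.48). The 150 nM libraries at FCRLB spanned the other groups.

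FCRL1 had its main H3K27ac peak inside the gene (157805902 to 157807869), over the small H3K4me3 peak, with 32.0 and 34.3 CPM with DMSO, 36.8 and 30.3 with 150 nM and 32.6 and 29.3 with 500 nM. The groups overlapped (-0.10, SE 0.15), whereas H3K4me3 there was higher at 500 nM. Over the start site FCRL1 had only a peak of 230 bp, ending 19 bp short of it, with 1.38 to 3.77 CPM. FCRL4 had no H3K27ac peak over its start site either, and its larger peak lay 4030 bp beyond the gene's far end (157568499 to 157569717). That peak held 16.6 and 12 CPM with DMSO, 15.5 and 10.4 with 150 nM and 13.6 and 12.9 with 500 nM, with overlapping groups (-0.10, SE 0.21). The largest H3K27ac value in the family at 500 nM against DMSO, -1.37 (SE 0.45, edgeR adjusted p = 0.148), was at a peak of 370 bp inside FCRL5 (157540974 to 157541343), with 4.83 and 4.21 CPM with DMSO and 1.32 and 2.15 with 500 nM. The other fitted members lay between -0.68 and 0.84.

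**Figure D4:**
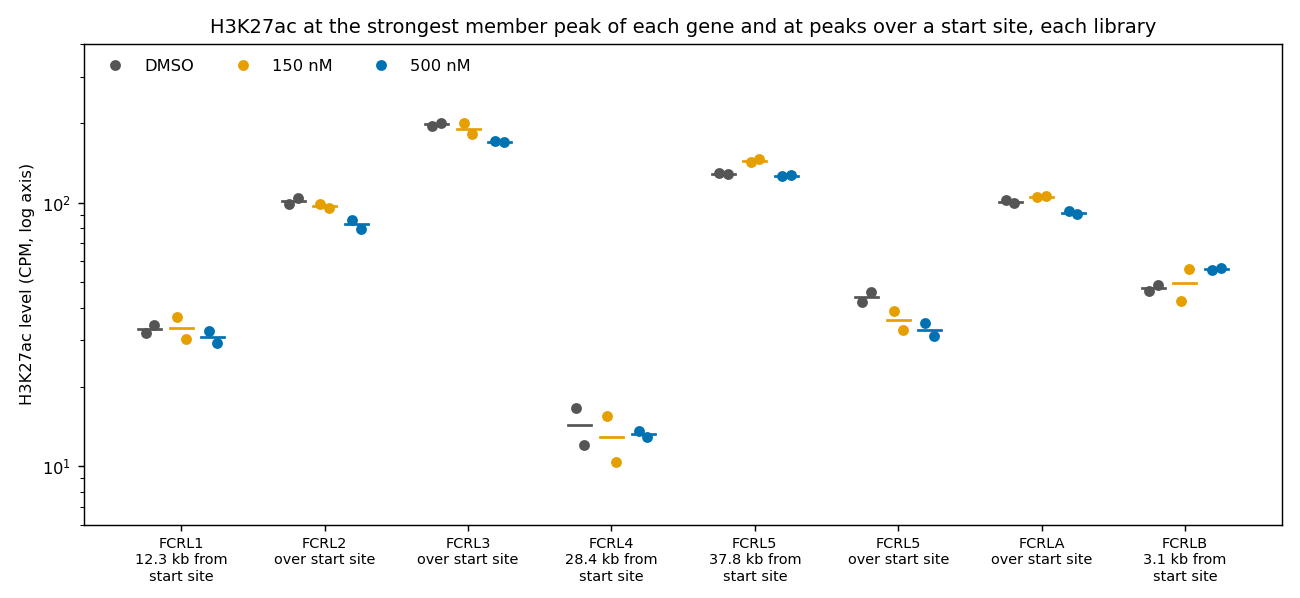
H3K27ac level in CPM (log axis) of each gene's most abundant member peak and of the peaks over a start site; points are libraries and bars are means of 2, by treatment. At FCRL2 the 500 nM libraries stand at 85.9 and 79.6 CPM below 95.2 to 104 in the other 4, and at FCRL1 the groups overlap.

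At 500 nM against 150 nM, edgeR called 0 of 27 H3K27ac members, where it called 1.27% of all peaks (1.09% higher, 0.185% lower), and DESeq2 also called 0. At an unadjusted p under 0.05 edgeR gave 6 of 27 members, against 10.2% of all. Both 500 nM libraries were below both 150 nM libraries in 12 of the 27 (19.3% of all peaks), and above both in 3 (19.3%). The lowest adjusted p was at a peak inside FCRL5 (157524104 to 157524786), with 9.20 and 9.23 CPM with DMSO, 5.95 and 5.28 with 150 nM and 11.1 and 9.97 with 500 nM. It was the 150 nM libraries that stood low there (0.91, SE 0.25, edgeR adjusted p = 0.0544). A peak inside FCRLA (161709079 to 161711483) had the same order of groups (0.51, SE 0.15, edgeR adjusted p = 0.0795). It had 26.7 and 28.9 CPM with DMSO, 24.9 and 22.1 with 150 nM and 33.3 and 33.4 with 500 nM. Against DMSO the FCRLA peak was at -0.25 (SE 0.16) with 150 nM and at 0.26 (SE 0.15) with 500 nM. Both were called higher without 150 nM replicate 1, with edgeR adjusted p = 0.0322 at FCRL5 and 0.0124 at FCRLA, where calls over all peaks rose from 687 to 2110.

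Lower values at 500 nM than at 150 nM were seen upstream of FCRL2 and FCRLB. The peak 2127 bp upstream of FCRL2 (157779259 to 157783675) had 48.5 and 40.9 CPM with DMSO, 52.1 and 47.7 with 150 nM and 40.3 and 36.2 with 500 nM (-0.38, SE 0.13, edgeR adjusted p = 0.191). The peak 134 bp upstream of FCRLB (161721090 to 161721410) had 2.30 and 2.21 CPM with DMSO, 6.59 and 3.58 with 150 nM and 1.88 and 2.35 with 500 nM (-1.24, SE 0.42, edgeR adjusted p = 0.182). At FCRLB it was the 150 nM libraries that stood high. Against DMSO the value there was 1.15 (SE 0.43) with 150 nM and -0.09 (SE 0.49) with 500 nM. Both peaks passed when the contig split of the libraries was a term in the fit, at -0.47 (edgeR adjusted p = 0.019) for FCRL2 and -1.51 (0.0484) for FCRLB, where 913 of all peaks were called. Without 150 nM replicate 2, the library with the fewest contig reads, the FCRLB value was -1.63. It then rested on 150 nM replicate 1, at 6.59 CPM. At 150 nM against DMSO edgeR called 0 of 27 members, and 0.00185% of all peaks, and DESeq2 called 0 members. At an unadjusted p under 0.05 edgeR gave 3 members (3.94% of all). Both 150 nM libraries were below both DMSO libraries in 10 of the 27 (15.6% of all peaks), and above both in 7 (14.9%).

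**Figure D5:**
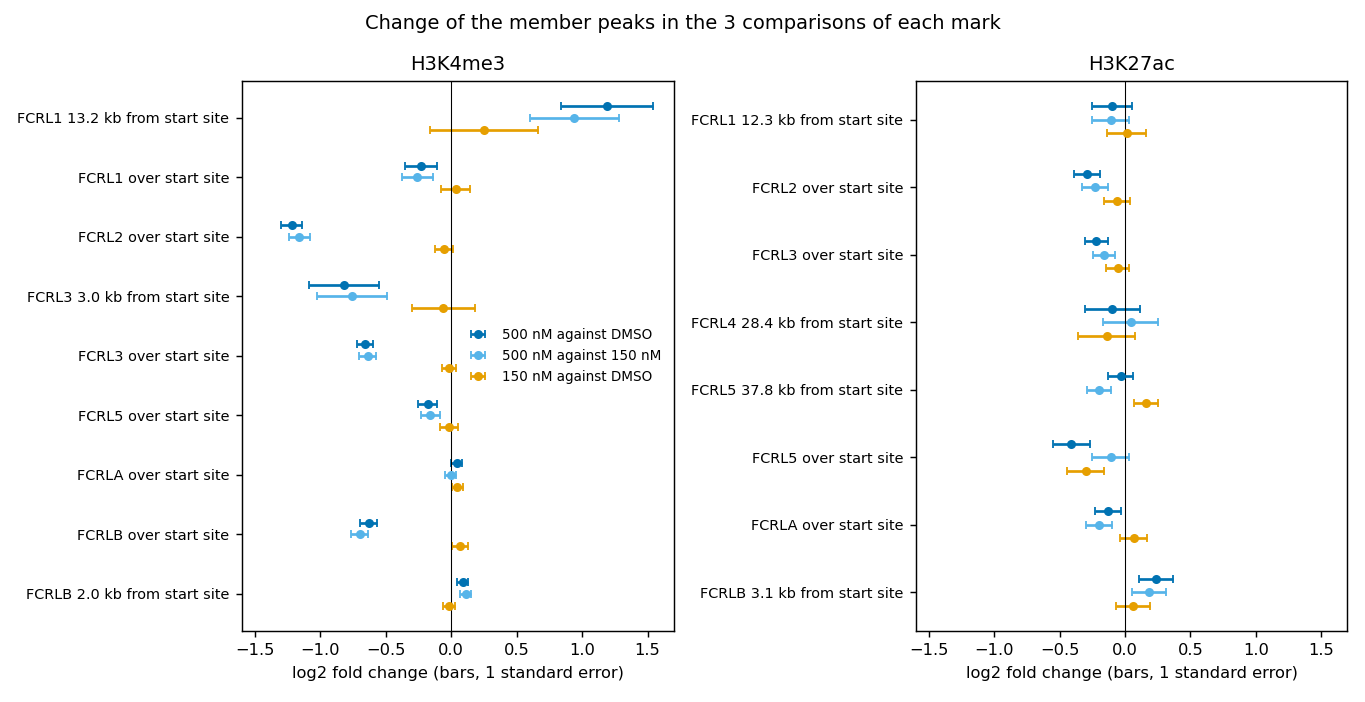
Log2 fold change (horizontal axis, bars: standard error) of member peaks, H3K4me3 on the left and H3K27ac on the right, for the 3 comparisons of treatments. At FCRL2 the H3K4me3 values against DMSO and 150 nM are -1.22 and -1.16, and the H3K27ac values at its start site are -0.29 and -0.23.

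The 5 kb limit had little to choose between its sides. Just inside it, the H3K27ac peak at 4030 bp from FCRL4 was at -0.10. Just outside, a peak 5184 bp from FCRL2 (157738773 to 157740549) had 22.8 and 20.7 CPM with DMSO and 20.0 and 24.1 with 500 nM, a value of 0.02, and one 5495 bp from FCRL4 was at -0.17. No H3K4me3 peak lay between 5 kb and 10 kb from the genes.

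Among H3K4me3 peaks of like abundance, the 3 nearest to FCRL2 in their pattern over the 6 libraries were chosen from 5225 by the distance between centred log2 CPM values. They lay at LOC105376035 on chromosome 9 (37411789 to 37413496, distance 0.0873), OSBPL3 on chromosome 7 (24842059 to 24844402, 0.093) and B4GALT5 on chromosome 20 (49665668 to 49670321, 0.151). OSBPL3 had 45.7 and 39.8 CPM with DMSO, 42.1 and 43.4 with 150 nM and 20.4 and 16.9 with 500 nM.

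Other genes of the pathway were read from lists that take in peaks by the same distance. Of 13 relatives, the classical Fc receptors and their kin, 6 genes had H3K4me3 peaks, and at 500 nM against DMSO edgeR called 1 of 7 peaks higher and 0 lower, with a median log2 fold change of 0.09. The higher one was at FCMR, the receptor for IgM, with 12.6 and 10.7 CPM with DMSO and 20.7 and 22.3 with 500 nM. The lists' H3K27ac peaks gave 0 calls of 6 for these relatives. Partners that pass on ITIM and ITAM signals, such as SYK, LYN and PTPN6, had 61 fitted H3K4me3 peaks at 18 genes, of which edgeR called 24 lower and 5 higher (median -0.09), where 18.7% and 20.7% of all peaks were. The largest change among them was at PLCG2, a phospholipase downstream of the B cell receptor, in a peak on chromosome 16 (81841738 to 81843324) with 1.55 and 2.06 CPM with DMSO and 18.7 and 19.3 with 500 nM (3.40, SE 0.19). Of their 211 H3K27ac peaks, 2 were called higher and 0 lower, where 0.692% and 0.231% of all peaks were. A chosen list of 8 genes near the Fc receptor-like genes, not all next to them, had 11 H3K4me3 peaks. Of these, 2 were called higher and 1 lower (median 0.04), and 0 of 8 H3K27ac peaks were called. Calls of H3K4me3 peaks at 500 nM against 150 nM were 2 higher and 0 lower for the relatives. They were 4 higher and 28 lower for the signalling partners, and 3 higher and 0 lower for the nearby genes. Of all peaks 20.5% were higher and 18.6% lower.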

How the data were processed

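ChIP-seq of H3K4me3 and H3K27ac in OCI-Ly1 cells was used, with groups, doses and replicate numbers taken from the sample titles. The 18 libraries of input, H3K9me2 and H3K9me3 were not analysed here. The deposited values are raw read counts per consensus peak, made with featureCounts 2.0.1 per the file headers, without strand, counting a read in every peak that held at least a fraction of 0.2 of it. A setting for read pairs stands in those headers, whereas single reads are described in the labels' protocols, and whether reads or fragments were counted is therefore unknown. The submitters' processing notes name GRCh38, Trim Galore 0.6.7, BWA 0.7.17-r1188, Picard 2.27.4, MACS2 2.2.7.1, deepTools 3.5.1 and edgeR 3.42.4, without their settings.

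Starts are printed with 1 added, since the lowest deposited start is 0. Gene bounds and promoters came from RefSeq (GRCh38.p14), matched by symbol, 7 of 7. The fits were made with edgeR 4.0.16 (R 4.3.3), for each mark over its 6 libraries together: filterByExpr by group, TMM, glmQLFit and glmQLFTest, with Benjamini-Hochberg adjustment at 0.05 over all fitted peaks. Standard errors came from the fold change and its F statistic. Described singly are each gene's peak of highest mean CPM per mark and every member called in any comparison. Members called only in alternatives, the start-site peaks and the peaks at the largest value or lowest adjusted p were added after their values were seen. The members and lists were chosen with earlier results of these data known. Same-numbered replicates were not treated as pairs, because the correlation of their deviations exceeded 0.1 for 1 of the 3 pairs of groups in H3K27ac and for none in H3K4me3. The alternatives were other scalings (median-of-ratios, total count, loess offsets), low-count filters, the 4 libraries of a comparison alone, a replicate block, a term for the contig split, DESeq2 1.42.0 and leaving out each library. Simulated data were passed only through the main edgeR fit of each mark, for the higher dose against DMSO, and not through the alternatives.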

Additional observations from a re-analysis of the deposited data

How the results depend on the processing

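Of 687 recomputed fold changes of single peaks, 615 kept their direction and side of the threshold, 24 lost a call and 22 gained one. The other 26 changed sign, 0 of them called in either fit. The H3K4me3 calls at the start sites of FCRL3 and FCRLB at 500 nM against 150 nM held in all 14 alternatives. Other than FCRL2, DESeq2 called only the H3K4me3 start-site peaks of FCRL3 and FCRLB at 500 nM, against DMSO and against 150 nM. Over all peaks it called 3479 in place of 8034 and 3473 in place of 7988. Leaving out 1 library gave 3 to 7 and 3 to 5 H3K4me3 members, with the lowest without DMSO replicate 1 and without 150 nM replicate 1. For H3K27ac at 500 nM against DMSO, the 4 libraries alone gave 3 members in place of 0 and 2105 of all peaks in place of 499. Leaving out 1 library gave 0 to 3, with 1900 and 1828 of all peaks without replicate 1 or 2 of 150 nM. At 500 nM against 150 nM leaving out 1 library gave 0 to 2, and the contig split as a term gave 2. At 150 nM against DMSO 0 members were called under each alternative, for both marks. With the replicate block, the H3K27ac peaks inside FCRL5 (157524104) and FCRLA (161709079), 2 members, were called higher at 500 nM against 150 nM (edgeR adjusted p = 0.0214 and 0.021). At 500 nM against DMSO and 150 nM the block gave 6 and 7 H3K4me3 members, with FCRL2 counted. Of all H3K4me3 peaks it called 8274 and 8193. The block moved all H3K27ac calls from 499 to 1150 and from 687 to 1186. The correlations of same-numbered libraries were 0.005 to 0.049 for H3K4me3 and 0.003 to 0.133 for H3K27ac. The median H3K27ac peak had 21 to 24 reads and the median H3K4me3 peak 263 to 328. Each group had 2 libraries of 1 line, and relative scaling cannot measure a shift of all peaks alike. The log2 fold changes that changed sign are given as the range over leaving out 1 library. For H3K4me3 at FCRLA it was -0.0027 to 0.073 at 500 nM against DMSO and -0.049 to 0.036 against 150 nM, where total count, loess offsets and a mean count of at least 50 gave 0.028, 0.052 and 0.016. For H3K4me3 at 150 nM against DMSO it was -0.11 to 0.013 at FCRL2, -0.073 to 0.052 and -0.32 to 0.32 at the FCRL3 start-site and weaker peaks, -0.069 to 0.044 at FCRL5 and -0.10 to 0.15 at the FCRL1 start site. For the main H3K27ac peak of FCRL4 it was -0.32 to 0.13 at 500 nM against DMSO, -0.23 to 0.35 against 150 nM (-0.20 with the contig split as a term) and -0.44 to 0.13 at 150 nM against DMSO. At 500 nM against 150 nM it was -0.25 to 0.024 for that of FCRL1 and -0.012 to 0.40 for that of FCRLB. At 150 nM against DMSO it was -0.11 to 0.0092 for that of FCRL3, -0.16 to 0.25 for that of FCRLB and -0.12 to 0.15 for that of FCRL1, where loess offsets and a mean count of at least 50 gave -0.0045 and -0.0041. The cause was not tested.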
